A study of Mus musculus with 67 samples.

Results

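Activated conventional CD4+ T cells (Tconv) sorted from the hypothalamus of female Balb/c mice were compared between a high-fat, high-sugar (HFHS) diet and a standard diet (SD). The libraries were taken by their labels (hypothalamus, activated T cells, Balb/c, either diet), which gave 8 of the 67 libraries of the series, 4 on each diet. The mice carried a Foxp3GFP reporter, and the sort kept living CD4+CD25-Foxp3GFP- cells that were high in CD44. Each library held cells pooled from 5 mice, and HFHS feeding began at 6 weeks of age in Balb/c mice. How long these mice were fed is not given in the sources used here. Replicates 1 to 4 follow the order of deposit and pair no libraries. The groups used for comparison were the same cells from the hypothalamus of male C57Bl/6J mice (4 libraries on each diet) and from the rest of the brain of female Balb/c mice (3 on each diet), so that strain and sex cannot be told apart. Values below are estimated counts scaled to library totals (CPM) after TMM normalization, which assumes that most genes do not differ, and p-values reflect the spread between pooled libraries.

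CD4+ T cells in the brain are few and of memory type, and on renewed contact with antigen they switch on immediate early transcription factors within minutes before cytokine genes follow. Their state also depends on clock genes, on nutrient sensing at the lysosome and on the chemokine receptors and integrins that bring them into the tissue. The HFHS diet is used as a model of a calorie-rich environment, and the question asked of these libraries is how such a diet alters T cells that reside in the hypothalamus.

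The libraries held 15396300 to 19946500 estimated counts, and the lowest level that 3 counts allow was 0.150 to 0.195 CPM (counting error only). Markers of T cells were high in all libraries. The 11 T-cell markers summed to 10604 ± 468 CPM (mean ± standard deviation, n = 4) on HFHS diet and 10547 ± 506 CPM on SD, with *Cd3e* the most abundant. *Foxp3* lay between 0 and 13.3 CPM, against a median of 273 CPM in the 8 Treg libraries of the same tissue and strain, which ranged from 0.0977 to 862 CPM. *Cd8a* and *Cd8b1*, which a CD4+ sort should not contain, were nevertheless present: they summed to 347, 546, 185 and 625 CPM in HFHS replicates 1 to 4 and to 274, 196, 295 and 199.9 CPM in SD replicates 1 to 4. In its flow cytometry the study set aside cells stained for CD8a and for markers of myeloid and B cells, and whether this step was part of the sort used here is not given in the sources used here. The part of CD8+ cells in the differences below was not tested.

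Several markers of other cells were measured. The microglia marker *Tmem119* was at 0 in all 8 libraries. The 9 oligodendrocyte markers summed to 336 ± 36.6 CPM on HFHS diet and 361 ± 52.8 CPM on SD, with *Cnp* the most abundant, the 10 of macrophages or monocytes to 168 ± 59.8 and 172 ± 77.1 CPM, with *Ly6c2* the most abundant, and the 8 endothelial markers to 157 ± 47.6 and 143 ± 69.3 CPM, with *Ly6c1* the most abundant. *Ly6c2* alone had means of 167.5 CPM on HFHS diet and 170.8 CPM on SD, so the macrophage or monocyte sum was almost wholly this gene. Of these 10 markers 6 were at 0 in all 8 libraries (*Adgre1*, *Cd14*, *Itgam*, *Mrc1*, *Ms4a7* and *Fcgr1*). The oligodendrocyte sum came almost wholly from *Cnp* and *Mbp*, with 2 markers at 0 throughout. The endothelial sum came almost wholly from *Ly6c1* and *Pecam1*, with 3 markers at 0 throughout. Whether these reads come from other cells or from T cells was not tested. NK-cell markers reached 109 CPM in HFHS replicate 2 and 76.7 CPM in SD replicate 3. Neuron markers summed to 2.71 ± 4.20 and 2.21 ± 2.73 CPM. Plasma cell markers were at 0 throughout, and B-cell markers reached at most 8.08 CPM. SD replicate 4 stood apart on the first principal component (21.7% of variance): it had 662 of the tested genes at 0, against 198 to 537 in the other libraries, and a cell cycle level of 2.62 (mean log2(CPM + 1)) against 4.80 to 5.95. HFHS replicate 3 stood apart on the second component (17.4%).

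Across the 10013 genes tested, no gene passed the threshold: edgeR's quasi-likelihood test with Benjamini-Hochberg adjustment called 0 genes (0%) and the smallest adjusted p was 0.171. At an unadjusted p under 0.05 there were 179 genes higher (1.79%) and 239 lower (2.39%) on HFHS diet, and DESeq2 called 48 genes, 13 higher and 35 lower. The 418 genes at an unadjusted p under 0.05 are fewer than this threshold passes on average when no gene differs. Named genes that DESeq2 called were *Rnf138*, *Rgs16*, *Ube2g1*, *Brix1*, *Ptbp3*, *Nsd3* and *Bccip*, all higher, and *Lamp1*, *Gnas*, *Arf6*, *Tprgl*, *Grk6*, *Tle5*, *Grb2*, *Clptm1l*, *Ctbp1*, *Jund*, *Srsf2*, *Ppp2ca*, *Gnb1*, *Rnf187*, *Galnt1* and *Ddx58*, all lower. On deposited TPM, the split at an unadjusted p under 0.05 was 145 higher and 455 lower. All genes tested had a median log2 fold change of -0.08 on TPM, with 42.1% above 0. List medians on TPM below are to be read beside that value. The diet groups did not overlap, meaning that all 4 HFHS libraries lay on one side of all 4 SD libraries, for 166 genes that were higher (1.66%) and 215 that were lower (2.15%), and on TPM for 87 and 288. The median log2 fold change of the former was 0.73 and of the latter -0.95. Chance alone separates groups of 4 libraries in this way for some genes, and that share was not computed. Genes lower on HFHS diet were richer in GC (median 52.3% of the transcript, against 48.6% for those higher and 49.9% for all genes tested). With an offset for GC content, an alternative added after seeing the data, the counts were 174 and 205. In bulk samples, fewer cells of a type and less RNA per cell cannot be told apart.

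**Figure D1:**
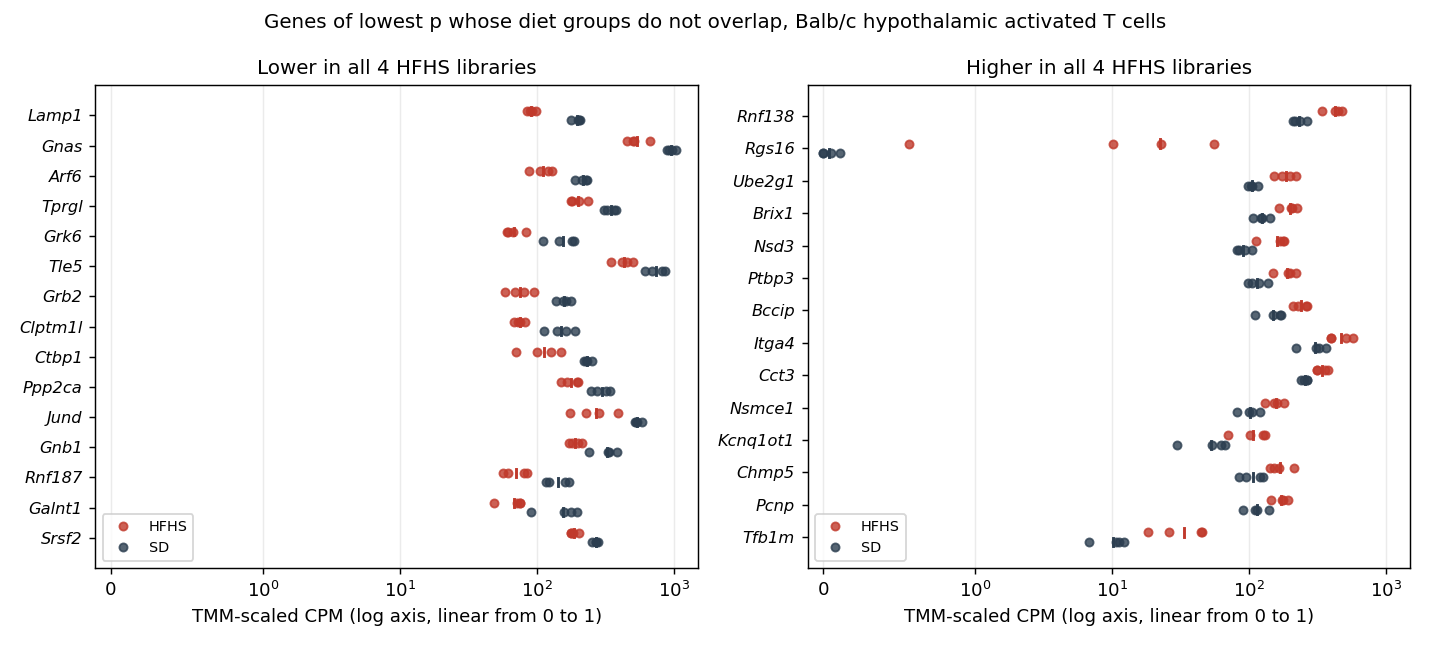
TMM-scaled CPM in each library (points) with the group mean (bar) for genes among the 15 of lowest p in each direction, 15 lower and 14 higher, on a log axis that is linear from 0 to 1. The points of both diets are separate for every gene shown, as the choice of genes requires. For *Lamp1* the 4 HFHS libraries sit between 84.6 and 98.2 CPM and the 4 SD libraries between 177 and 204.

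Among genes lower on HFHS diet, *Lamp1* had the smallest p. It encodes a major glycoprotein of the lysosomal membrane (chromosome 8, 13159161 to 13175338, GRCm38). The gene was measured at 91.3, 88.7, 98.2 and 84.6 CPM in HFHS replicates 1 to 4 and 199, 202, 204 and 177 CPM in SD replicates 1 to 4, and so was lower in each HFHS library by a gap wider than the spread within either diet. Its log2 fold change was -1.11 ± 0.15 (SE), with an adjusted p of 0.171 in edgeR's quasi-likelihood test with Benjamini-Hochberg adjustment and of 5.60e-12 by DESeq2, which called it, and leaving out any library gave -1.16 to -1.08. A second lysosomal gene, *Laptm5*, which limits surface T-cell receptor, was at 983 to 1139 CPM on HFHS diet and 1150.1 to 1499 CPM on SD with a log2 fold change of -0.32 ± 0.12 (SE). Of the 29 autophagy and lysosome genes tested, 18 lay below 0 (median -0.07, -0.16 without SD replicate 2 and -0.04 without SD replicate 1, -0.20 on TPM). *Lamp1* and *Laptm5* were the members whose groups did not overlap (6.90% of the list lower, against 2.15% of all genes).

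Some genes among those lower in all 4 HFHS libraries act in G-protein or receptor signalling, a grouping made after their values were seen and not tested as a list, and *Rgs16* of the same pathway was higher (below). *Gnas*, which encodes the stimulatory G-protein alpha subunit, was measured at 455, 505, 507 and 671 CPM in HFHS replicates 1 to 4 and 886, 961, 919.9 and 1029 CPM in SD replicates 1 to 4 (log2 fold change -0.83 ± 0.14 (SE)). Because the *Gnas* locus (chromosome 2, 174284320 to 174346744) holds overlapping and antisense transcripts and no strand setting is given in the sources used here, their reads cannot be told apart. *Gnb1*, a beta subunit of the same class, was at 172 to 211 CPM on HFHS diet and 239 to 386 CPM on SD. *Grk6*, a kinase that turns off chemokine receptors and other G-protein-coupled receptors, was at 60.4 to 82.6 CPM on HFHS diet and 110.4 to 185 CPM on SD with a log2 fold change of -1.19 ± 0.22 (SE). *Arf6*, a small GTPase of membrane recycling and the actin cortex (chromosome 12, 69372150 to 69375980), was measured at 87.1, 129, 104 and 121 CPM in HFHS replicates 1 to 4 and 190.2, 228, 233 and 214 CPM in SD replicates 1 to 4. The adaptor *Grb2*, which links receptors to Ras, was at 57.9 to 95.5 CPM on HFHS diet and 136 to 178 CPM on SD. *Vav1*, a guanine nucleotide exchange factor of the T-cell receptor pathway (chromosome 17, 57279100 to 57329236), was at 99.3 to 177 CPM on HFHS diet and 197 to 229 CPM on SD with a log2 fold change of -0.63 ± 0.19 (SE). It was the member of the 24 T-cell receptor genes tested whose groups did not overlap (4.17%, against 2.15% of all genes lower), and the list's median was -0.10, -0.11 without HFHS replicate 3 and -0.02 without SD replicate 4. The catalytic subunit gene *Ppp2ca* of phosphatase PP2A was at 149.9 to 197 CPM on HFHS diet and 249 to 343 CPM on SD. The transcriptional corepressor genes *Tle5* and *Ctbp1* were lower in all 4 HFHS libraries as well, with log2 fold changes of -0.79 and -1.05.

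The immediate early list, whose genes answer receptor signals first, had 23 genes tested, of which 16 lay below 0 and 4 (17.4% of the list, against 2.15% of all genes) had HFHS libraries all below SD. *Jund*, a subunit of AP-1 (chromosome 8, 70697739 to 70700616), was measured at 175, 226, 389 and 282 CPM in HFHS replicates 1 to 4 and 523, 586, 519 and 533 CPM in SD replicates 1 to 4. Its log2 fold change was -1.01 ± 0.22 (SE), with an adjusted p of 0.513 by edgeR's quasi-likelihood test with Benjamini-Hochberg adjustment and of 0.00120 by DESeq2, which called it. *Dusp2*, a phosphatase of MAP kinases, was at 179.8 to 344 CPM on HFHS diet and 356 to 941 CPM on SD. SD replicate 3 was far above the other SD libraries for *Dusp2*, and without it the log2 fold change was -0.57 instead of -1.03. *Nr4a1*, an orphan nuclear receptor that marks recent T-cell receptor signals, was at 8.07 to 16.5 CPM on HFHS diet and 19.3 to 53.5 CPM on SD, and *Ier5* at 44.9 to 76.5 CPM on HFHS diet and 83.7 to 149 CPM on SD. Other members did not differ in this way: *Fos*, chosen here after its values were seen, was at 668 to 2573 CPM on HFHS diet and 1359 to 2188 CPM on SD, and the list's level per library, 5.72, 6.48, 6.62 and 6.08 in HFHS replicates 1 to 4 and 6.66, 7.06, 6.33 and 6.30 in SD replicates 1 to 4 (mean log2(CPM + 1)), overlapped between diets. The list's median log2 fold change was -0.12 (-0.32 to -0.03 with single libraries left out).

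Of the 40 lists, only the clock, Th2, MHC class I and RNA splicing lists had levels that did not overlap between diets. How many would do so by chance was not computed. The level of the clock gene list was lower in all 4 HFHS libraries. Over the 19 genes tested it was 3.433, 3.265, 3.165 and 3.637 in HFHS replicates 1 to 4 and 3.751, 4.032, 4.598 and 4.228 in SD replicates 1 to 4, and 15 of 19 genes lay below 0 (median -0.56, -0.79 to -0.33 with single libraries left out, -0.56 on TPM). Of the list 2 of 19 were lower without overlap (*Bhlhe40* and *Nfil3*), against 2.15% of all genes, and without these 2 genes the levels of the 17 others overlapped, with 3.53 in HFHS replicate 4 and 3.504 in SD replicate 1 and a median of -0.47, an alternative added after seeing the data. *Bhlhe40*, a repressor of the clock and a cofactor of cytokine genes in T cells (chromosome 6, 108660629 to 108666925), was measured at 66.2, 257, 188 and 155 CPM in HFHS replicates 1 to 4 and 309.6, 425, 325 and 330.0 CPM in SD replicates 1 to 4 (log2 fold change -1.06 ± 0.33 (SE)). *Nfil3*, a repressor with a D-box target (chromosome 13, 52967209 to 52982878), was measured at 0.0528, 0, 0 and 2.47 CPM in HFHS replicates 1 to 4 and 9.61, 29.2, 13.6 and 13.2 CPM in SD replicates 1 to 4. Its log2 fold change was -4.68 ± 1.81 (SE). HFHS replicates 1 to 3 lay at or under the level of 3 counts, so without HFHS replicate 4 no fold is given.

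**Figure D2:**
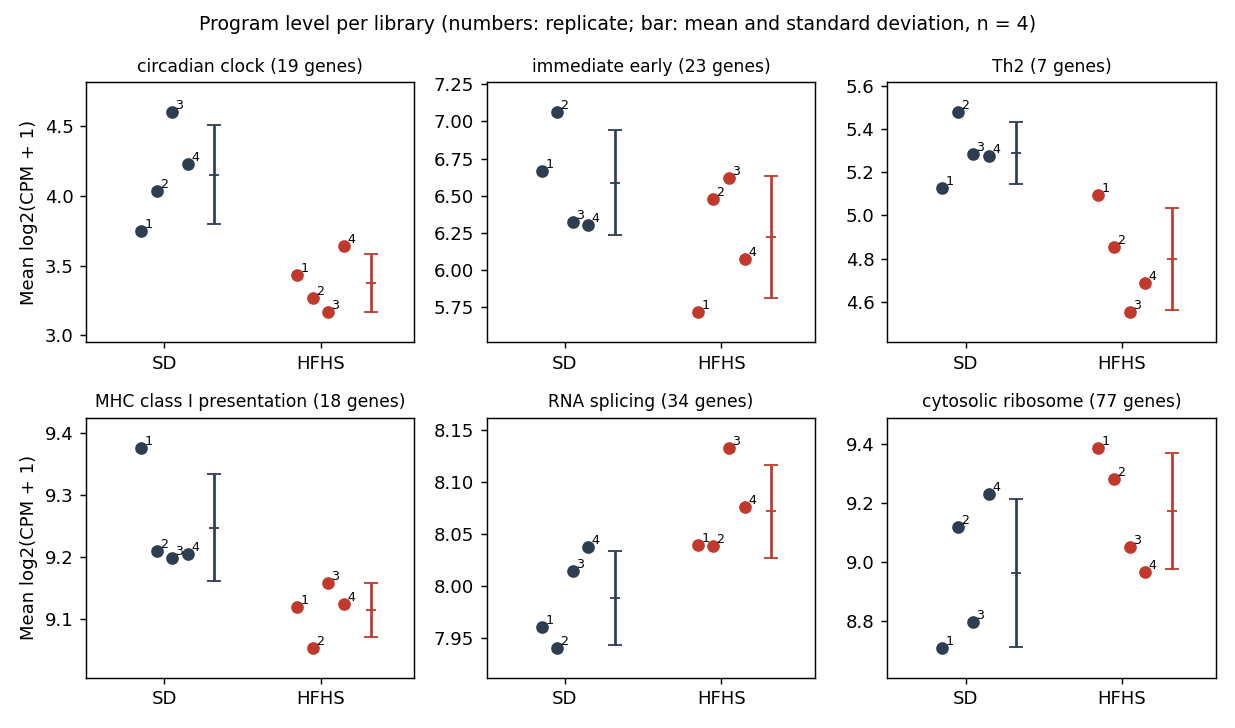
Mean log2(TMM-scaled CPM + 1) of 6 gene lists in each library, numbered by replicate, with the mean and standard deviation of each diet (n = 4). The lists were chosen for the plot after their values were seen. Circadian clock levels lie at 3.165 to 3.637 on HFHS diet and 3.751 to 4.598 on SD, while the levels of the immediate early and cytosolic ribosome lists overlap.

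The promoters of the immediate early and clock genes whose diet groups did not overlap were searched for an E-box (CACGTG, bound by clock and related factors), a cyclic AMP response element (TGACGTCA) and an AP-1 site (TGACTCA), on both strands. Genes and motifs were chosen after the values were seen. Of 6 genes looked up, 5 were matched in the RefSeq table (GRCm38.p6, 250 bases before to 50 after the start) and *Bhlhe40* was not. A motif was found in 1 of the 5, an E-box in *Dusp2*, and no motif was found in *Ier5*, *Jund*, *Nfil3* or *Nr4a1*. Of 32851 promoters, 7.15% hold the E-box, 1.79% the cyclic AMP response element and 5.202% the AP-1 site. The promoter with the match (chr2:127335909-127336208, plus strand, E-box in capitals) and that of *Jund*, the listed gene of smallest p (chr8:70697489-70697788, plus strand), read as follows.
Dusp2: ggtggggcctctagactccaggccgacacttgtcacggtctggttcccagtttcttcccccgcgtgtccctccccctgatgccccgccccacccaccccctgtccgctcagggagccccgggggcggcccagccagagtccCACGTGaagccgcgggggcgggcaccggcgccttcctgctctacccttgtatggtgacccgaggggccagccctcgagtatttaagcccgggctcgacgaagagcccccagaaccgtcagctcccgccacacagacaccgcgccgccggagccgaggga
Jund: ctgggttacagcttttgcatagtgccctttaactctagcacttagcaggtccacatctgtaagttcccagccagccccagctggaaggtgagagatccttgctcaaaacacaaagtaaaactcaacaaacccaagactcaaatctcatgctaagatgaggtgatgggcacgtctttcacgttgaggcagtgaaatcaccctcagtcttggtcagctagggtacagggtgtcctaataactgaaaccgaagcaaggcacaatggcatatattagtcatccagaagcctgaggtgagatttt

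For Th2 genes, 6 of 7 tested lay below 0 (median -0.30, -0.62 to -0.16 with single libraries left out), and the list level was 5.10, 4.86, 4.55 and 4.69 in HFHS replicates 1 to 4 and 5.13, 5.48, 5.28 and 5.27 in SD replicates 1 to 4 and did not overlap. Of its members 0 had groups that did not overlap, where 1.66% of all genes were higher and 2.15% lower, and *Stat6*, which carries the interleukin-4 signal, had the opposite sign (138 to 181 CPM on HFHS diet and 105 to 164 CPM on SD). Th1 and cytotoxic genes lay above 0 in 18 of 27 (median 0.14, 0.07 without SD replicate 3 and 0.20 without HFHS replicate 1). Among them *Gzmk*, a granzyme of memory cells, was at 122 to 179 CPM on HFHS diet and 87.1 to 108 CPM on SD, and its part that comes from CD8+ cells was not tested. *Ccl5*, a chemokine of effector cells, was at 1070.5 to 1770.3 CPM on HFHS diet and 915 to 1147 CPM on SD with a log2 fold change of 0.44 ± 0.16 (SE). The median of 10 follicular help genes was 0.23, 0.12 without HFHS replicate 2 and 0.35 without SD replicate 4. For 10 checkpoint receptors it was 0.25, 0.00179 without SD replicate 4 and 0.38 without HFHS replicate 3. The sign of the median turned with single libraries left out for 16 naive and egress genes (-0.05, -0.22 without HFHS replicate 2 and 0.07 without SD replicate 4) and for 12 residency genes (-0.04, -0.22 without HFHS replicate 3 and 0.09 without HFHS replicate 4). Only 6 Th17 genes could be tested (median -0.27, -0.56 without HFHS replicate 3 and -0.15 without HFHS replicate 2, and -0.62 without SD replicate 4 and HFHS replicate 3).

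Of 14 genes that the study names for conventional T cells, 13 were tested here. Among those 13, 0 had diet groups that did not overlap, where 1.66% of all genes were higher and 2.15% lower without overlap. The study named them from its pilot libraries, whose conventional T cells were not sorted for high CD44, and not from these 8 libraries. Its HFHS pilot took cells low to intermediate in CD44. The study reported *Ccr7* and *S1pr1* as lower on HFHS diet and the other genes named for that diet as higher. By qPCR on such cells from an independent set of brains, the study reported *Cxcr3* and *Ifng* as significantly higher. For *Ccr7* and *Cd226* it reported upward trends. It named *Cxcr6*, *Ifng* and *Irak1* with its comparison of *ob/ob* mice, which differ in genotype, and *Ifng* for the HFHS diet as well. *Cxcr3*, a Th1 chemokine receptor, was at 870.4 to 1231 CPM on HFHS diet and 940.2 to 1445 CPM on SD. *Tbx21*, the Th1 master regulator, was at 27.2 to 109.7 CPM on HFHS diet and 30.3 to 81.5 CPM on SD with a log2 fold change of -0.03 ± 0.44 (SE). *Ifng* was at 305 to 725 CPM on HFHS diet and 399 to 609.8 CPM on SD, and *Ccr7* at 45.0 to 109 CPM on HFHS diet and 43.7 to 141 CPM on SD. For *S1pr1*, a receptor for egress, values were 67.4 to 283 CPM on HFHS diet and 131 to 309 CPM on SD. *Cd226*, a costimulatory receptor, was at 265 to 295 CPM on HFHS diet and 169.9 to 439 CPM on SD. *Ccr4*, a chemokine receptor, was at 0.360 to 44.6 CPM on HFHS diet and 23.01 to 50.6 CPM on SD, *Pik3cg*, a lipid kinase, at 7.89 to 55.5 CPM on HFHS diet and 12.7 to 67.9 CPM on SD and *Map3k7*, the kinase TAK1, at 17.9 to 57.6 CPM on HFHS diet and 35.6 to 61.1 CPM on SD. Their log2 fold changes were -0.90 ± 0.96 (SE), -0.73 ± 0.64 (SE) and -0.56 ± 0.41 (SE), and stayed below 0 with any library left out (-1.83 to -0.50, -1.40 to -0.43 and -0.94 to -0.35). *Mtor* was at 9.91 to 16.0 CPM on HFHS diet and 0.203 to 43.9 CPM on SD, *Cxcr6* at 1464 to 3252 CPM on HFHS diet and 1560.1 to 3251 CPM on SD and *Irak1* at 50.5 to 72.4 CPM on HFHS diet and 40.9 to 84.0 CPM on SD, and *Ccl5* is given above.

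Interferon-stimulated genes lay below 0 in 27 of 41 (median -0.20, -0.23 without HFHS replicate 3 and -0.13 without HFHS replicate 2). Of these, *Ddx58*, a sensor of viral RNA, was lower in all 4 HFHS libraries (68.7 to 100.4 CPM on HFHS diet and 107 to 200.3 CPM on SD, log2 fold change -0.93 ± 0.23 (SE)), and so was *Trim30a* (64.6 to 129 CPM on HFHS diet and 138 to 193 CPM on SD). In the opposite direction, *Irf1* was at 337 to 418 CPM on HFHS diet and 163 to 335 CPM on SD and *Igtp*, a GTPase, at 458 to 605 CPM on HFHS diet and 378 to 451 CPM on SD. Without overlap were 4.88% of the list in each direction, against 1.66% of all genes higher and 2.15% lower. SD replicate 4 was far below the other SD libraries for *Irf1*, and without it the log2 fold change was 0.26 instead of 0.45. The MHC class I list had a level of 9.12, 9.05, 9.16 and 9.12 in HFHS replicates 1 to 4 and 9.38, 9.21, 9.20 and 9.21 in SD replicates 1 to 4 and did not overlap, with 0 of 18 genes not overlapping, where 1.66% of all genes were higher and 2.15% lower. Its median was -0.09, -0.14 without SD replicate 3 and -0.06 without SD replicate 1, -0.19 on TPM, -0.02 with the offset for GC content and -0.17 without SD replicate 4 and HFHS replicate 3. Genes of NF-kB and innate signalling lay below 0 in 19 of 24, with a median of -0.08, -0.20 without HFHS replicate 2 and -0.05 without SD replicate 2.

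Lists of protein synthesis and respiration had medians above 0. All 77 cytosolic ribosome genes lay above 0, where 50.7% of all genes tested did, with log2 fold changes of 0.04 to 0.39 and a median of 0.20 (0.13 on TPM, 0.11 to 0.30 with single libraries left out). Their list level overlapped between diets, 9.39, 9.28, 9.05 and 8.97 in HFHS replicates 1 to 4 and 8.71, 9.12, 8.80 and 9.23 in SD replicates 1 to 4, and 0 of these genes had groups that did not overlap, against 1.66% of all genes higher. Ribosomal protein genes have many near-identical pseudogene copies, which makes their counts uncertain. Oxidative phosphorylation genes lay above 0 in 63 of 74 (median 0.13, 0.05 on TPM). Genes of mitochondrial translation and import did so in 26 of 33 (median 0.13, 0.04 without HFHS replicate 1 and 0.16 without SD replicate 4, 0.02 on TPM). Heat shock genes lay above 0 in 15 of 17 (median 0.21, 0.02 without SD replicate 1 and 0.34 without SD replicate 4).

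Metabolic genes whose diet groups did not overlap lay in both directions. *Cpt1a*, which brings fatty acids into mitochondria, was at 32.3 to 58.6 CPM on HFHS diet and 1.56 to 28.0 CPM on SD and so was higher in all 4 HFHS libraries. *Etfdh*, which passes electrons from fatty acid oxidation to the respiratory chain, was at 0.309 to 61.3 CPM on HFHS diet and 71.7 to 80.8 CPM on SD, and HFHS replicate 4 alone was near 0. These were 3.57% of the 28 fatty acid genes in each direction, against 1.66% of all genes higher and 2.15% lower. Over the 28 genes the median was -0.03, -0.10 without SD replicate 4 and 0.05 without HFHS replicate 3. *Pfkl*, a glycolytic phosphofructokinase, was at 25.3 to 57.2 CPM on HFHS diet and 64.0 to 96.1 CPM on SD, while *Gapdh* of the same list was higher without overlap (1509.8 to 1755 CPM on HFHS diet and 1328 to 1492 CPM on SD). These were 4.76% of the 21 glycolysis genes in each direction, against 1.66% of all genes higher and 2.15% lower, and the list's median was -0.14, -0.19 without SD replicate 2 and -0.03 without SD replicate 3. *Akt1*, a kinase of insulin signalling, was at 12.9 to 40.4 CPM on HFHS diet and 45.3 to 69.9 CPM on SD, and *Pik3cd*, a lipid kinase upstream of it, at 119 to 197 CPM on HFHS diet and 201 to 252 CPM on SD. Both belong to the 29 mTOR, leptin and insulin genes (6.90% lower without overlap, against 2.15% of all genes, median -0.15, -0.17 without SD replicate 1 and -0.01 without HFHS replicate 2, 0.00968 with limma-voom and -0.00675 without SD replicate 4 and HFHS replicate 3). *Gclm*, a glutathione synthesis subunit, was at 22.5 to 31.2 CPM on HFHS diet and 37.4 to 65.2 CPM on SD, and *Gsr*, glutathione reductase, at 23.5 to 51.3 CPM on HFHS diet and 61.4 to 70.5 CPM on SD. They were the members of the 20 oxidative stress genes without overlap (10%, against 2.15% of all genes lower), of which 8 lay above 0 (median -0.06, -0.10 without HFHS replicate 2 and -0.00908 without HFHS replicate 4). *Mcl1*, a survival factor, was at 174 to 254 CPM on HFHS diet and 274 to 356 CPM on SD, all HFHS libraries below SD.

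Among genes higher on HFHS diet, *Rnf138*, a ubiquitin ligase, had the smallest p. It was measured at 472, 445, 419 and 339 CPM in HFHS replicates 1 to 4 and 215, 265, 236 and 209.7 CPM in SD replicates 1 to 4, with a log2 fold change of 0.86 ± 0.15 (SE). *Ube2g1*, a ubiquitin-conjugating enzyme, was at 151 to 218 CPM on HFHS diet and 97.2 to 115 CPM on SD. *Itga4*, the alpha-4 integrin that T cells use to enter the brain (chromosome 2, 79255426 to 79333114), was measured at 395, 575, 507 and 397 CPM in HFHS replicates 1 to 4 and 362, 324, 219.5 and 307 CPM in SD replicates 1 to 4 (log2 fold change 0.63 ± 0.19 (SE)). Among 17 integrin and adhesion genes it was the member with groups that did not overlap (5.88%, against 1.66% of all genes higher), while 10 of the 17 lay below 0 (median -0.02, -0.16 without HFHS replicate 4 and -0.01 without SD replicate 4). *Tfb1m*, a mitochondrial ribosomal RNA methyltransferase, was at 18.1 to 45.0 CPM on HFHS diet and 6.75 to 12.1 CPM on SD. *Kcnq1ot1*, an imprinted long noncoding RNA (chromosome 7, 143213111 to 143296547), was at 70.4 to 129.7 CPM on HFHS diet and 29.9 to 66.9 CPM on SD. It runs antisense to *Kcnq1*, and reads from both cannot be told apart without strand. Noncoding RNAs lay above 0 in 10 of 11 (median 0.31). *Rgs16*, which speeds the turn-off of G-protein signals, was measured at 10.1, 55.5, 22.6 and 0.566 CPM in HFHS replicates 1 to 4 and 0, 0.112, 0 and 0.0508 CPM in SD replicates 1 to 4. All SD libraries lay under the level of 3 counts, so no fold is given. Among splicing genes, *Clk4* and *Ddx5* were higher in all 4 HFHS libraries and *Srsf2* and *Hnrnpl* lower (5.88% of 34 genes in each direction, against 1.66% and 2.15% of all genes), with a list median of 0.10 that was -0.04 on TPM, 0.05 with the offset for GC content, 0.14 without SD replicate 4 and HFHS replicate 3 and 0.06 to 0.12 with single libraries left out. The list level, 8.04, 8.04, 8.13 and 8.08 in HFHS replicates 1 to 4 and 7.96, 7.94, 8.01 and 8.04 in SD replicates 1 to 4, did not overlap, by a narrow margin.

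**Figure D3:**
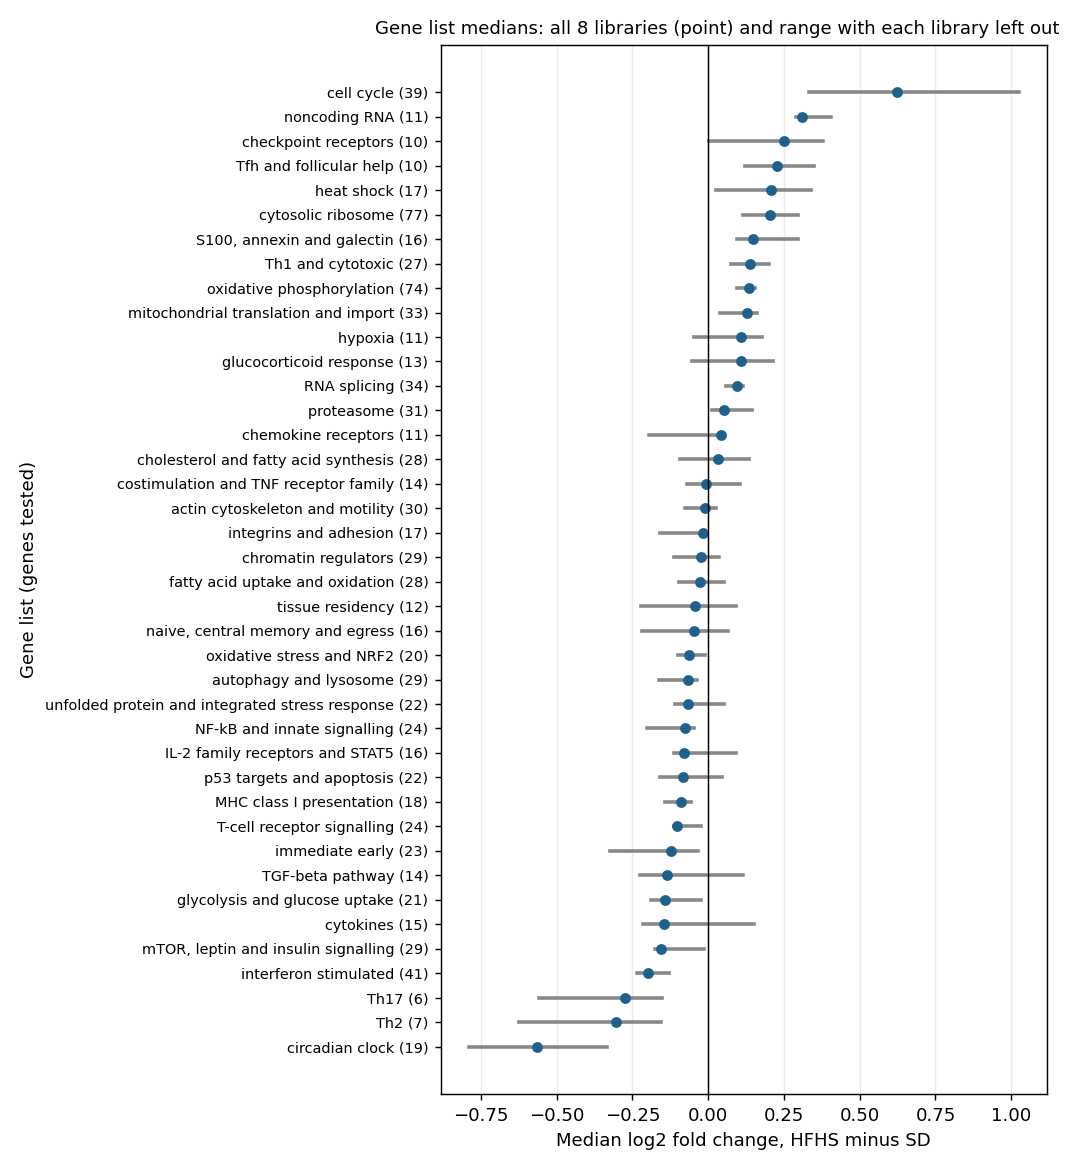
Median log2 fold change (HFHS minus SD) of the 40 gene lists, with the number of genes tested in brackets. Points are all 8 libraries and lines the range when each library is left out. The medians run from -0.56 for the circadian clock to 0.62 for the cell cycle, and 0.01 is the median of all genes tested.

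The medians of other lists are given with their range when single libraries were left out. They were -0.01, -0.07 to 0.10 for costimulation, -0.08, -0.11 to 0.09 for interleukin-2 family receptors, -0.14, -0.22 to 0.15 for cytokines and -0.14, -0.22 to 0.12 for TGF-beta signalling. The highest values of cytokines and TGF-beta signalling were those without SD replicate 3. Chemokine receptors (0.04, -0.19 to 0.05), cholesterol and fatty acid synthesis (0.03, -0.09 to 0.13) and the proteasome (0.05, 0.01 to 0.15) had medians of -0.08, -0.08 and -0.04 on TPM. The median of all genes tested on TPM was -0.08 as well. Stress lists had -0.07, -0.11 to 0.05 (unfolded protein), 0.11, -0.05 to 0.18 (hypoxia), -0.08, -0.16 to 0.05 (p53 and apoptosis) and 0.11, -0.05 to 0.21 (glucocorticoid), and hypoxia had 0.64 with limma-voom. The actin cytoskeleton had -0.01, -0.08 to 0.02 (-0.11 on TPM) and chromatin regulators -0.02, -0.11 to 0.04. For the S100 and annexin list the median was 0.15, 0.10 without HFHS replicate 2 and 0.30 without SD replicate 2 (0.02 on TPM), and *S100a11* (869 to 1039 CPM on HFHS diet and 776 to 859 CPM on SD) and *Anxa5* (273 to 313 CPM on HFHS diet and 214 to 263 CPM on SD) were higher in all 4 HFHS libraries (12.5% of 16 genes, against 1.66% of all genes). The cell cycle median was 0.62, and the list level overlapped between diets, 4.93, 5.95, 4.87 and 5.63 in HFHS replicates 1 to 4 and 4.98, 5.51, 4.80 and 2.62 in SD replicates 1 to 4. The median was 0.33 without HFHS replicate 2 and 1.03 without SD replicate 2, and it was 0.39 without SD replicate 4 and HFHS replicate 3, an alternative added after seeing the data.

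The diet difference was then compared between strains and tissues. In edgeR's interaction test, 0 of 10846 genes passed for strain (0%, smallest adjusted p 0.451, 490 genes or 4.52% at an unadjusted p under 0.05, and 192 by DESeq2). For tissue 0 of 11784 passed (0%, smallest adjusted p 0.313, 983 genes or 8.34% at an unadjusted p under 0.05, and 169 by DESeq2). Ranges in brackets leave out single libraries, an alternative added after seeing the data. *Lamp1* had a log2 fold change of -0.04 (-0.25 to 0.41) in C57Bl/6J hypothalamus and -0.94 (-1.66 to -0.66) in Balb/c rest brain. The C57Bl/6J value was highest without SD replicate 4 and the rest brain value lowest without HFHS replicate 3. In the same order *Gnas* had 0.20 (0.04 to 0.30) and -0.29 (-0.44 to -0.19), *Arf6* 0.09 (-0.07 to 0.42) and 0.16 (0.10 to 0.26), and *Jund* 0.09 (-0.07 to 0.32) and -1.26 (-1.44 to -0.83). *Itga4* had 0.62 (0.51 to 0.85) and 0.57 (0.47 to 0.63). The circadian list had medians of 0.10 (-0.13 to 0.20) and -0.28 (-0.48 to 0.08), and the ribosome list of 0.02 (-0.19 to 0.17) and 0.56 (0.46 to 0.65). Of genes higher in Balb/c hypothalamus without overlap, 81 of 156 (51.9%) had the same sign in C57Bl/6J, and of genes lower 114 of 208 (54.8%), beside 4907 of 9377 (52.3%) over all genes tested in both. Rest brain shares 5 pool labels with the hypothalamus, which the tissue test above does not use.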

How the data were processed

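RNA sequencing libraries of sorted T cells were quantified by the authors with Salmon, and the deposited values are estimated counts and TPM per transcript name, on the mouse build mm10 (GRCm38). The deposited estimated counts carry no scaling between libraries, and the deposited TPM are scaled by length and library total. Of 35034 names, 34850 (99.5%) were matched to a gene and summed, giving 24461 features, and sums were rounded.

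Genes that reached more than 10 counts in 4 or more libraries were tested in R 4.3.3 with edgeR 4.0.16 (TMM, quasi-likelihood test, Benjamini-Hochberg adjustment, threshold 0.05) on 8 libraries. The program was tested on simulated data. DESeq2 1.42.0, limma 3.58.1, other scalings and filters, TPM and left-out libraries were alternatives. List levels are the mean of log2(CPM + 1). Totals were 15396300 to 19946500 counts, and no 2 libraries of the same diet were duplicates. Pairs across diets were not checked.

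Named genes were those the study names for conventional T cells, the 15 of smallest p in each direction among non-overlapping genes with a mean CPM of at least 10 and p under 0.05, list members whose groups do not overlap, up to a pair per direction of each list, and gate and marker genes. Members and the 40 lists were chosen with earlier results of these data known. Sensitivity was followed for 98 named genes, a narrowing made after values were seen. The promoter search was also added after values were seen. Many named genes have no values in the text, and a few, among them 1 of the 15 higher genes, 1 of the 13 outlying groups and gate and microglia markers, are not reported here.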

Additional observations from a re-analysis of the deposited data

Results flagged for a closer look

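Of 236 groups of 4 libraries examined, 13 held a library far from the other 3 (gap over range above Dixon's critical value), and chance flags about 1 in 20 groups. On the scale of log2(CPM + 1), the MHC class I level of SD replicate 1 was 9.38 against 9.20 to 9.21 in the others, and the fatty acid level of SD replicate 3 was 5.21 against 5.40 to 5.43. Single genes included *Nsd3* in HFHS replicate 1 (6.81), *Galnt1* in HFHS replicate 2 (5.63), *Uhrf1* in HFHS replicate 4 (4.83), *Dusp2* in SD replicate 3 (9.88), *Irf1* in SD replicate 4 (7.36), *Pfkl* in SD replicate 1 (6.60), *Etfdh* in HFHS replicate 4 (0.39), *Nfil3* in HFHS replicate 4 (1.80), *Ddx5* in SD replicate 3 (10.98) and *Cd226* in HFHS replicate 1 (8.05). Why these libraries differ was not tested.

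Of the named genes without overlap in Balb/c hypothalamus, 1 of 59 had diet groups that did not overlap in the opposite direction in C57Bl/6J hypothalamus (4 of 364 over all genes). In Balb/c rest brain 3 of 60 did so (17 of 374 over all genes). In the same direction there were 1 of 59 in C57Bl/6J hypothalamus (3 of 364 over all genes) and 13 of 60 in rest brain (63 of 374). Diet groups did not overlap for 21% of all genes in rest brain, against 2.32% in C57Bl/6J. Rest brain has groups of 3 libraries instead of 4, which separate more easily by chance, and how far this accounts for its share was not tested. At an unadjusted p under 0.05 by edgeR there were 1371 of 10991 genes in rest brain and 199 of 9696 in C57Bl/6J hypothalamus. *Vav1* was lower in Balb/c and higher in C57Bl/6J hypothalamus, with an interaction log2 difference of -1.22. *Irf1* (1.07) and *Gapdh* (0.74) were higher in Balb/c hypothalamus and lower in Balb/c rest brain, and *Nfil3* (-5.88) was lower in the former and higher in the latter. Because 3 of the 4 HFHS libraries of hypothalamus lay at or under the level of 3 counts for *Nfil3*, the size of its difference is not determined. None of these interactions passed an adjusted p of 0.05 in edgeR's quasi-likelihood test with Benjamini-Hochberg adjustment.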

How the results depend on the processing

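Of the 381 genes whose groups did not overlap, 369 still did so with RLE size factors, 351 with library totals, 295 on TPM and 333 with the offset for GC content (added after seeing the data), and all 381 kept their sign in these. With more than 10 counts in total, 344 genes were higher and 390 lower at an unadjusted p under 0.05. DESeq2 gave 48 genes called and 339 and 383 at an unadjusted p under 0.05, limma-voom 272 higher, and TPM 455 lower and 87 non-overlapping higher. Without SD replicate 4 and HFHS replicate 3 (added after seeing the data) the non-overlapping counts were 605 and 651, which fewer libraries make easier to reach. Without single libraries they were 273 to 368 and 339 to 390, counts at an unadjusted p under 0.05 were 137 to 198 higher and 209 to 284 lower, and 0 genes were called by edgeR. DESeq2 gave 192 genes for the strain interaction (739 at an unadjusted p under 0.05) and 169 for tissue. Ranges without single libraries were 437 to 484 genes for strain and 920 to 1065 for tissue at an unadjusted p under 0.05. With the pool label as a replicate block, 653 genes had an unadjusted p under 0.05 for tissue, against 811 in the same 10 libraries without it, and 0 were called in both. Deviations from the group mean had r from -0.01 to 0.02 between same-pool libraries. The HFHS pools gave the same r by construction, so these values are not all independent. Signs turned for *Mtor* (0.52 with limma-voom, 0.0304 on TPM), *Cxcr6* (-0.00693 with limma-voom, -0.00964 on TPM, and -0.12 without the 2 libraries), *Tbx21* (0.0515 with the offset), *Cd226* (-0.00151 with the offset, -0.0718 without the 2 libraries), *S1pr1* (0.22) and *Ifng* (-0.0160), the last 2 without the 2 libraries, and the cause was not tested. Without single libraries the log2 fold changes ranged as follows: *Tbx21* -0.48 to 0.20, *Ccr7* -0.14 to 0.53, *S1pr1* -0.42 to 0.0677, *Irak1* -0.24 to 0.0643, *Cxcr6* -0.11 to 0.36, *Mtor* -0.89 to 0.59, *Cd226* -0.0892 to 0.42 and *Cxcr3* -0.21 to 0.0175. DESeq2 brought 23 of the named genes past the threshold. Low genes are limited by depth, at 0.150 to 0.195 CPM for 3 counts.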

Other observations

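*Uhrf1* and *Kcnq1ot1* were among the 60 named genes whose diet groups did not overlap in Balb/c hypothalamus. *Uhrf1*, which maintains DNA methylation, was at 21.5 ± 4.05 CPM (mean ± standard deviation, n = 4) on HFHS diet and 5.86 ± 5.96 CPM on SD in Balb/c hypothalamus. *Kcnq1ot1* had log2 fold changes of 1.01 there, 1.497 in C57Bl/6J hypothalamus, where its diet groups did not overlap either, and -0.62 in Balb/c rest brain, where it was 0.14 without SD replicate 3. *Bhlhe40* had -1.06, 0.59 and -0.16 in the same order. The second of these was 0.05 without HFHS replicate 1 and 1.21 without SD replicate 4, and the third -0.60 without HFHS replicate 1 and 0.39 without SD replicate 1, an alternative added after seeing the data.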
